A study of Mus musculus with 52 samples.

Results

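The genes described are 9 that handle iron, heme and peroxides: Fth1, Ftl1, Hmox1, Blvrb, Prdx1, Txn1, Txnrd1, Gpx1 and Esd. They are 9 of the 23135 genes listed in a mouse UMI count table and all 9 passed the filter on low counts. They were taken by name. The family was chosen by its levels in PGE2-treated and untreated cells, because Fth1, Prdx1 and Blvrb answered prostaglandin E2 (PGE2) differently after 4 h and after 24 h. The members' values in PGE2-treated against untreated cells are therefore given as a description, with no test. The cells were CD103-positive conventional type 1 dendritic cells (cDC1), the subset that takes up dead cells and cross-presents their antigens to CD8 T cells. They had been grown from C57BL/6 bone marrow with FLT3L and GM-CSF and purified by sorting, so they are a culture model and not cells of a tissue. All 13 groups held 4 libraries, called A to D, which made 52 in all.

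At 4 h there were 9 groups. They were PGE2 at 100 ng/ml, PGE2 after 30 min with an antagonist of the receptor EP1 (SC-19220), EP2 (PF-04418948), EP3 (L-826,266) or EP4 (L161,982), PGE2 after EP2 + EP4 antagonists, control CM, Ptgs-deficient CM, and untreated cells. Each antagonist was used at 5 uM. CM is medium conditioned by melanoma cells of a BRAFV600E line. Ptgs-deficient CM came from such cells lacking Ptgs1 and Ptgs2, the cyclooxygenases that make the precursor of PGE2. For the combined EP2 + EP4 group the title names both receptors, while the treatment field gives SC-19220, the agent of the EP1 group, together with L161,982. The second agent of that group is therefore uncertain, and the group is called by its title. At 24 h there were 4 groups, namely PGE2 with poly I:C, poly I:C, PGE2 and untreated cells. Poly I:C is a double-stranded RNA mimic sensed by TLR3 and was given at 10 ug/ml for 4 h to cells that had PGE2 or no treatment for 24 h. The labels name the 24 h first and do not say whether the 4 h lie within them. The libraries are labelled as biological replicates but no separate animals or cultures are named, so the spread behind every p-value could be technical only.

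Ferritin is a hollow shell of heavy (Fth1) and light (Ftl1) chains that stores iron in a form that cannot react with peroxide. Heme oxygenase and biliverdin reductases break heme down, and peroxiredoxins and glutathione peroxidases remove peroxides with electrons passed on by thioredoxin or glutathione. Many of these genes are transcribed when the factor NRF2 binds the antioxidant response element (ARE), whereas ferritin protein is also set by iron at translation, which RNA counts do not show. PGE2 acts through the receptors EP1 to EP4, of which EP2 and EP4 raise cyclic AMP.

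The stretches upstream of 3 members are shown because ARE letters were searched in them, with capitals marking TGACNNNGC read on either strand. The sequences are RefSeq windows of GRCm38.p6 on the plus strand, trimmed to the bases outside annotated exons, for Prdx1 (chr4:116685349-116685543), Txnrd1 (chr10:82859009-82859178) and Blvrb (chr7:27447728-27447977).
Prdx1: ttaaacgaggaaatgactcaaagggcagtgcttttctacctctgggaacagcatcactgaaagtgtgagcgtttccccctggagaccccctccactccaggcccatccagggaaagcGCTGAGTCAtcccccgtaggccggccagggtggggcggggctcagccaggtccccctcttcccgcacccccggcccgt
Txnrd1: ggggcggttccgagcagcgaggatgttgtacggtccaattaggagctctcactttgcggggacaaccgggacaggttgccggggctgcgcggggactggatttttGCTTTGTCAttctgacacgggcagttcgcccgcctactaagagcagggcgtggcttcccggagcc
Blvrb: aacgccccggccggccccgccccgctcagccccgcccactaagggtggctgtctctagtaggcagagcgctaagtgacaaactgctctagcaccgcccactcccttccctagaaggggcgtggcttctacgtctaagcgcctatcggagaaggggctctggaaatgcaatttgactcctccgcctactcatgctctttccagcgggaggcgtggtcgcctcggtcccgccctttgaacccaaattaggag

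Windows of 250 bases upstream of a start were at hand for 8 of the 9 members, 12 windows in all. The ARE letters stood in 1 window of Prdx1 and in 1 of the 3 windows of Txnrd1. They were also present in 3338 of 32851 windows of all genes, which is 10.2%. In Prdx1 the match begins 133 bases upstream of the RefSeq start, counted from the end of the whole window at 116685598. That end lies past the GENCODE gene start given below. The letters of the match overlap TGACTCA, the AP-1 letters, read on the other strand. AP-1 letters stood in 4.46% of all windows and a second copy lies 237 bases upstream of the same RefSeq start of Prdx1. The cyclic AMP response letters TGACGTCA, present in 1.55% of all windows, were in none of the 12 windows. A match is a description of letters and not a site, and no match says only that the letters are not in that window.

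The libraries held 42666 to 438491 UMI counts with a median of 295484.5, and 2 of them had fewer than 100000, EP4 antagonist A and untreated A at 4 h. A count of 0 allows up to 3 counts, which is 10.2 CPM at the median total, for counting error only. All 13 cDC1 markers checked were present. Their summed level was 6513 to 7190 CPM in PGE2-treated and 10022 to 10954 CPM in untreated cells at 4 h, and its part in the values below was not tested. Of 16 macrophage and monocyte markers 14 were in the table, with a summed level of 429 to 2094 CPM over all libraries, mostly Lyz2 and Csf1r. The list was not uniform. Over all 52 libraries C1qa, Mertk, Adgre1 and Spic held 4, 1, 8 and 4 counts, while Csf1r held 3257 and Lyz2 13144. Summed markers were 62.65 to 1217 CPM for the plasmacytoid dendritic cell (pDC) list and 11.51 to 236.6 CPM for the conventional type 2 (cDC2) list, and reached 33.8 CPM for erythroid, 15.2 CPM for granulocyte and mast cell and 25.1 CPM for lymphocyte lists. Levels below are CPM, UMI counts scaled to a common library total with TMM factors, and are compared between groups and not between genes.

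Of the 2 libraries that stood apart on these genes, the first was Ptgs-deficient CM B. It had the highest level of its group for 7 of the 9 members, and its summed cDC1 markers were 8817 CPM against 10772 to 11638 CPM in the other libraries of its group. The second was PGE2 + EP3 antagonist B, which had the lowest level of its group for 7 members, with summed cDC1 markers of 8801 CPM against 6520 to 6574 CPM in the others. Nothing in the labels marks these libraries. The members' tested comparisons that use them are given with and without them. Both libraries were picked after seeing the members' values. Values and adjusted p without them partly follow from that choice and are given as descriptions.

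**Figure D1:**
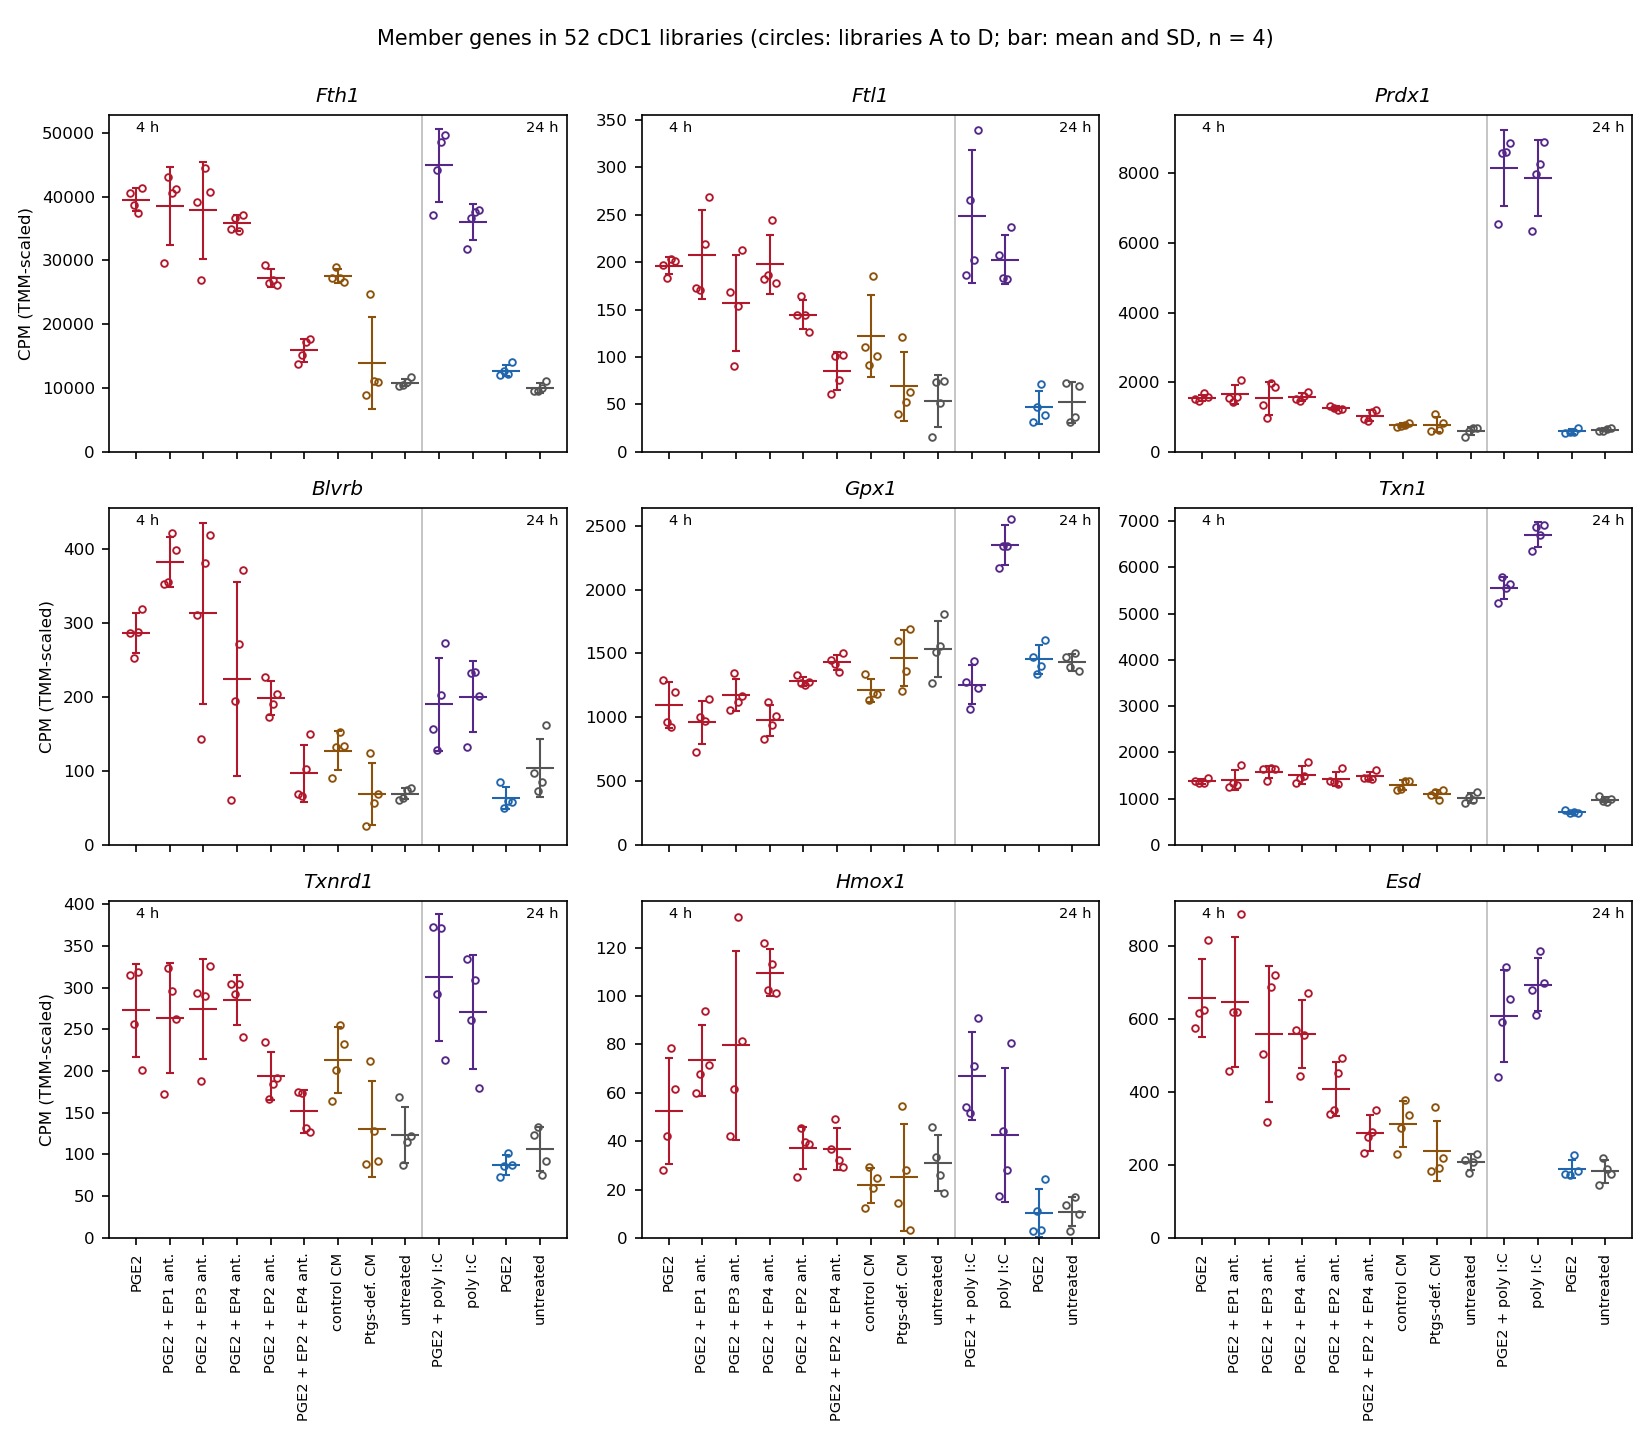
The plot of CPM by group gives each of the 9 genes in 13 groups, 4 h on the left and 24 h on the right of the grey line. Circles are libraries A to D, and bars are the mean and SD (n = 4). The Fth1 panel puts PGE2-treated libraries at 4 h between 37436 and 41347 CPM and untreated ones between 10374 and 11664 CPM, while in the Prdx1 panel the poly I:C libraries at 24 h stand between 6347 and 8914 CPM and the untreated ones between 598 and 686 CPM.

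Of the iron storage genes, Fth1, the heavy ferritin chain that oxidises iron (chromosome 19, 9980598 to 9985098, plus strand, GRCm38), had 40603, 38644, 37436 and 41347 CPM in PGE2-treated cells at 4 h, against 10374, 10473, 10873 and 11664 CPM in untreated cells. Every PGE2 library was above every untreated one, and the fitted log2 fold change was 1.85 ± 0.20 (SE). Fth1 alone made up 3.98% to 4.24% of all counts in PGE2-treated cells at 4 h and 1.18% to 1.33% in untreated cells. In bulk libraries, a change in the share of some cells and a change in RNA per cell cannot be told apart. At 24 h the same gene had 12021, 12647, 12222 and 14000 CPM with PGE2, against 9469, 9573, 9938 and 11125 CPM without it. The groups did not overlap at 24 h either, but the log2 fold change was 0.37 ± 0.07. The difference of the 24 h minus the 4 h effect was -1.50 ± 0.11 on the log2 scale.

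Ftl1, the light chain that helps iron crystals form, is on chromosome 7 (45457944 to 45459884, minus strand). It had 183 to 203 CPM with PGE2 at 4 h and 15.3 to 74.2 CPM in untreated cells, a log2 fold change of 1.63 ± 0.25. At 24 h it had 31.0 to 71.1 CPM with PGE2 and 31.0 to 72.7 CPM without it, and the groups lay on top of each other. These Ftl1 levels are uncertain, since 74.1% to 75.5% of the 50-base runs in the last 400 bases of its transcripts also occur in other annotated genes, Ftl1-ps1 among them.

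Heme breakdown genes were at lower counts. Blvrb, a reductase of flavins and of biliverdin (chromosome 7, 27447978 to 27466144, plus strand), had 287, 252, 287 and 318 CPM with PGE2 at 4 h, against 61.2, 63.9, 74.7 and 76.9 CPM in untreated cells. The groups were wide apart, at a log2 fold change of 1.98 ± 0.36. At 24 h Blvrb had 84.4, 50.2, 58.8 and 58.0 CPM with PGE2, against 96.98, 73.4, 84.4 and 162 CPM without it. The log2 fold change there was -0.67 ± 0.24, so the sign was opposite to that at 4 h, and the groups overlapped between 73.4 and 84.4 CPM. The difference between the times was -2.67 ± 0.32, the most negative among the 9 members. Hmox1, the heme oxygenase that frees iron from heme (chromosome 8, 75093621 to 75100589, plus strand), had 28.2 to 78.3 CPM with PGE2 at 4 h and 18.6 to 45.9 CPM without it, on 3 to 27 counts a library. These ranges overlapped. At 24 h it had 2.8 to 24.2 CPM with PGE2 and 2.8 to 16.9 CPM without it, near the level that 3 counts would give.

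In the thioredoxin arm, Prdx1, a peroxiredoxin that reduces hydrogen peroxide with electrons from thioredoxin (chromosome 4, 116685544 to 116700822, plus strand), had 1505, 1475, 1677 and 1564 CPM with PGE2 at 4 h. Untreated cells had 428, 606, 672 and 684 CPM, and the log2 fold change was 1.31 ± 0.16. At 24 h Prdx1 had 529 to 681 CPM with PGE2 and 598 to 686 CPM without it, at -0.10 ± 0.10. The groups thus stood apart at 4 h and overlapped at 24 h. Txnrd1, the NADPH-dependent reductase that recharges thioredoxin (chromosome 10, 82833951 to 82897712, plus strand), had log2 fold changes of 1.27 ± 0.20 at 4 h and -0.27 ± 0.22 at 24 h. Txn1, thioredoxin itself (chromosome 4, 57943373 to 57956411, minus strand), had 1373, 1334, 1337 and 1441 CPM with PGE2 at 4 h, against 903, 1029, 965 and 1148 CPM in untreated cells. At 24 h the order was turned, with 746, 686, 711 and 681 CPM with PGE2 and 1051, 948, 926 and 987 CPM without it. Neither pair of Txn1 groups overlapped, and the log2 fold changes were 0.41 ± 0.12 at 4 h and -0.44 ± 0.09 at 24 h.

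The glutathione-linked members went opposite ways at 4 h. Esd, an esterase that hydrolyses S-formylglutathione (chromosome 14, 74732297 to 74750765, plus strand), had 574 to 816 CPM with PGE2 and 178 to 231 CPM without it, at a log2 fold change of 1.65 ± 0.25. At 24 h its groups overlapped at 0.08 ± 0.16. Up to 38.2% of the 50-base runs in the last 400 bases of Esd transcripts also occur in other genes, Esd-ps among them. Gpx1, the glutathione peroxidase of the cytosol and mitochondria (chromosome 9, 108338903 to 108340343, plus strand), had 1293, 963, 920 and 1195 CPM with PGE2 at 4 h, against 1270, 1514, 1557 and 1805 CPM in untreated cells. It was the only member with a lower fitted level at 4 h, at -0.54 ± 0.12, though library A of each group made the ranges meet. At 24 h it had 1341 to 1603 CPM with PGE2 and 1359 to 1500 CPM without it.

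Across these libraries 7 of the 9 members had every PGE2 library above every untreated one at 4 h. Of 4896 genes compared in that way 6.8% did, and since these contrasts chose the family, nothing is read from the count. At 24 h Fth1 was above in every library, as 5.31% of genes were, and Txn1 below, as 5.96% were, and the other 7 overlapped. Between untreated cells at 24 h and at 4 h the log2 fold change was -1.31 ± 0.54 for Hmox1 and 0.51 ± 0.24 for Blvrb. These changes enter the 24 h minus 4 h effect of PGE2 with the opposite sign. That effect was -1.21 ± 0.78 for Hmox1 and, as given above, -2.67 ± 0.32 for Blvrb. Only Hmox1 among the 9 had every untreated library at 24 h below every untreated library at 4 h, which 3.9% of genes did. With library totals in place of TMM scaling, the median of all genes for PGE2 over untreated cells at 4 h was -0.13 instead of -0.01, and every member kept the sign of its log2 fold change at both times.

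**Figure D2:**
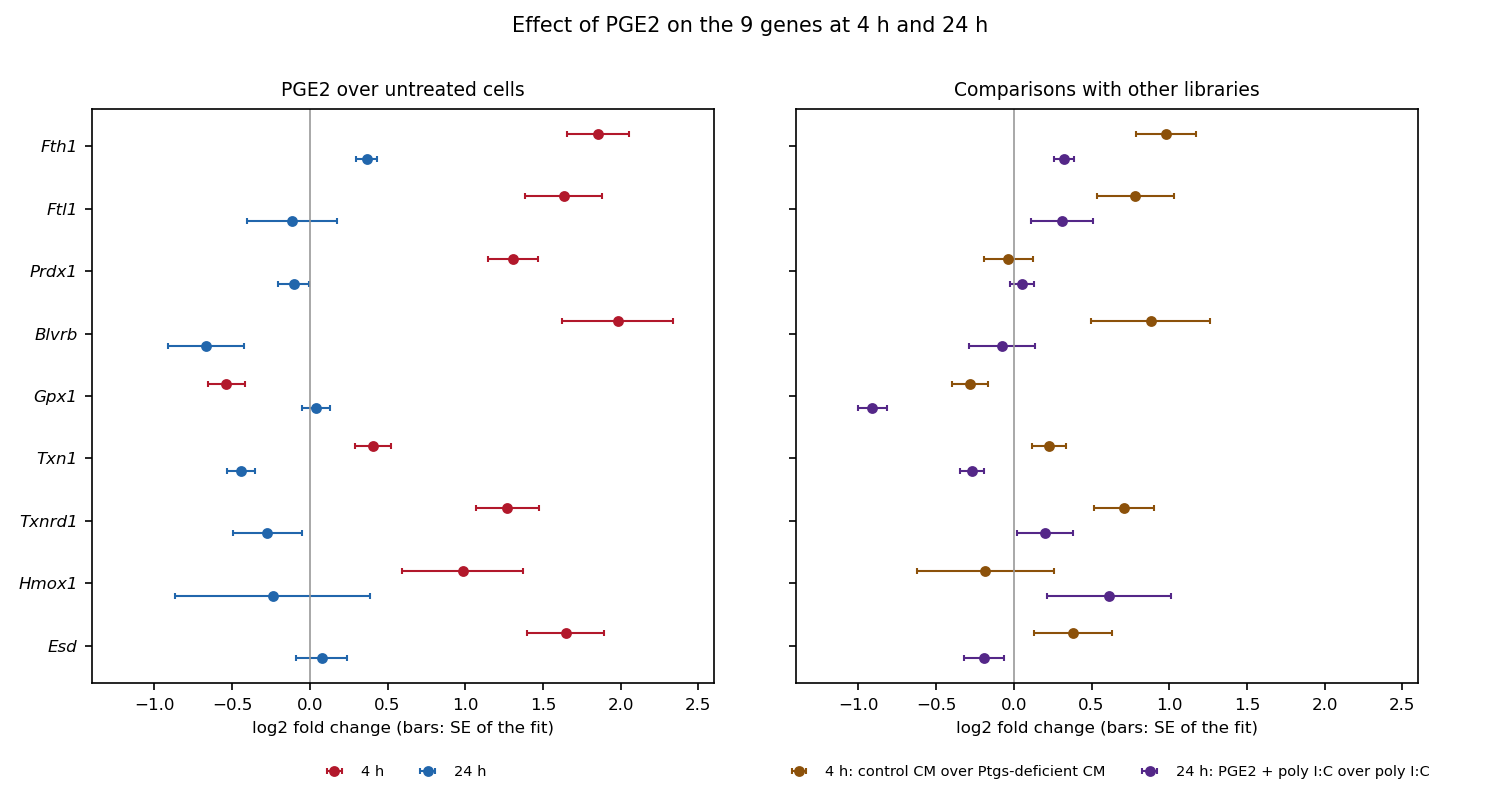
The plot of log2 fold changes by time gives the fitted value and SE of each gene. The left panel has PGE2 over untreated cells, where Blvrb is at 1.98 at 4 h and at -0.67 at 24 h, and the right panel has the comparisons made in other libraries, where Gpx1 is at -0.91 in PGE2 with poly I:C over poly I:C.

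Medium conditioned by melanoma cells with both cyclooxygenases was compared with medium of cells lacking them, in libraries that did not choose the family. The spread behind the test came from all libraries at 4 h, which include those that did. The enzymes also serve other prostanoids than PGE2. Fth1 and Txnrd1 rose in control CM relative to Ptgs-deficient CM. Fth1 had 27230, 29010, 27311 and 26569 CPM in control CM, against 8943, 24710, 11121 and 10900 CPM in Ptgs-deficient CM. Every control CM library was higher, but Ptgs-deficient CM B came close to them while the other 3 lay near untreated cells. The log2 fold change was 0.98 ± 0.19, with an adjusted p of 0.001536 in edgeR's quasi-likelihood test. Txnrd1 had 164, 201, 255 and 232 CPM in control CM, against 88.3, 212, 128 and 92.3 CPM in Ptgs-deficient CM. Its log2 fold change was 0.71 ± 0.20 with an adjusted p of 0.01412. The 2 members that passed compare with 2.33% of 5754 genes that rose and 1.53% that fell. With library totals the split of all called genes was 120 higher and 121 lower, against 134 and 88 with TMM scaling.

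The other 7 members did not pass with all libraries and TMM scaling. Ftl1 was at 0.78 ± 0.25 with an adjusted p of 0.05151 and Blvrb at 0.88 ± 0.38 with an adjusted p of 0.277. Some passed under an alternative. Ftl1 had an adjusted p of 0.04444 without the libraries under 100000 counts, 0.03011 without control CM B and 0.04662 without control CM D. Blvrb had an adjusted p of 0.04537 with no filter on low counts, and Gpx1, at -0.34, had one of 0.04363 with library totals. Prdx1 had 710, 747, 770 and 834 CPM in control CM, against 587, 1074, 629 and 837 CPM in Ptgs-deficient CM, and its fitted difference was -0.03 ± 0.16. Esd was at 0.38 ± 0.25, Txn1 at 0.23 ± 0.11, Gpx1 at -0.28 ± 0.11 and Hmox1 at -0.18 ± 0.44. Without Ptgs-deficient CM B, which was picked for its member levels, 4 members rose, and 3.17% of 6060 genes did. The larger values without it partly follow from that choice. Fth1 was then at 1.42 ± 0.12 with an adjusted p of 1.34e-22, Ftl1 at 1.23 ± 0.28, Blvrb at 1.38 ± 0.40 and Txnrd1 at 1.08 ± 0.22. The Prdx1 difference without that library was 0.17 ± 0.15, with an adjusted p of 0.6978. In a fit of only the 2 CM groups Fth1 did not pass, at 0.98 ± 0.34 with an adjusted p of 0.2209. The Txnrd1 call was lost without control CM C or D or Ptgs-deficient CM A or D, at adjusted p between 0.06996 and 0.1897. Summed cDC1 markers were 8115 to 8364 CPM in control CM and 8817 to 11638 CPM in Ptgs-deficient CM, and their part in the result was not tested.

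Against untreated cells, with which the PGE2 contrast shares its libraries, control CM had every library higher for 5 members, against 6.88% of genes. They were Fth1, Ftl1, Prdx1, Blvrb and Txn1, the last at a log2 fold change of 0.33 ± 0.12, while Txnrd1 overlapped. Ptgs-deficient CM overlapped for all 9, where 2.21% of genes were higher and 1.51% lower in every library. The log2 fold changes of control CM over untreated cells were 1.34 ± 0.19 for Fth1, 0.93 ± 0.26 for Ftl1, 0.83 ± 0.39 for Blvrb, 0.91 ± 0.21 for Txnrd1 and 0.29 ± 0.17 for Prdx1. Those of Ptgs-deficient CM were 0.36 ± 0.19, 0.15 ± 0.28, -0.05 ± 0.43, 0.20 ± 0.22 and 0.33 ± 0.17 in the same order. Without library B they were -0.07 ± 0.11, -0.29 ± 0.31, -0.54 ± 0.44, -0.17 ± 0.24 and 0.13 ± 0.15, and all 9 members again overlapped untreated cells. PGE2 itself was given at 100 ng/ml and the labels used here give no PGE2 level for the CM, so the sizes in PGE2 and in CM are set side by side only.

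Receptor antagonists given before PGE2 ask which receptor the response passes through. They were tested against the mean of the EP1 and EP3 antagonist groups, because the PGE2 group itself had served to choose the family. The spread again came from all libraries at 4 h, the PGE2 ones included. With EP2 + EP4 antagonists 7 members fell and Gpx1 rose, so that 8 of 9 passed, where 5.58% of 5754 genes fell and 4.9% rose. Fth1 had 13793, 15149, 17211 and 17616 CPM with EP2 + EP4 antagonists. It had 29536, 43039, 40489 and 41246 CPM with the EP1 antagonist and 39191, 26921, 44406 and 40769 CPM with the EP3 antagonist. The combined group lay below all 8 of these libraries and above all 4 untreated ones. The log2 fold change was -1.27 ± 0.17, with an adjusted p of 4.155e-06 in edgeR's quasi-likelihood test.

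Blvrb fell furthest of the 9, to 69.2, 66.4, 102 and 150 CPM with EP2 + EP4 antagonists, against 353, 355, 421 and 399 CPM with the EP1 antagonist and 310, 143, 381 and 418 CPM with the EP3 antagonist. The highest combined library overlapped only EP3 antagonist B. Its log2 fold change was -1.84 ± 0.27, with an adjusted p of 7.76e-06. Prdx1 had 955, 878, 1145 and 1197 CPM with EP2 + EP4 antagonists, against 1437 to 2058 CPM with the EP1 and 974 to 1970 CPM with the EP3 antagonist. It fell by 0.62 ± 0.13 on the log2 scale with an adjusted p of 0.0006223, and its level stayed above the 428 to 684 CPM of untreated cells in every library. Ftl1 fell by 1.12 ± 0.19, Esd by 1.08 ± 0.20, Hmox1 by 1.06 ± 0.27 and Txnrd1 by 0.86 ± 0.15. Gpx1 had 1446, 1415, 1357 and 1500 CPM with EP2 + EP4 antagonists, above the 728 to 1141 CPM with the EP1 and 1054 to 1347 CPM with the EP3 antagonist in every library, at 0.42 ± 0.10 with an adjusted p of 0.0006989. Txn1 was at -0.01 ± 0.09 and did not pass.

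No alternative changed the number of members that passed in this comparison, and it was again 8 without EP3 antagonist B. With library totals the split of all called genes was 387 higher and 282 lower, against 282 and 321 with TMM scaling. The summed cDC1 markers, none of which is a member, were 8773 to 9237 CPM with EP2 + EP4 antagonists, 6277 to 7132 CPM with the EP1 antagonist and 6520 to 8801 CPM with the EP3 antagonist, and their part in the result was not tested.

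With a single antagonist against the same 8 libraries, no member passed. The EP2 antagonist gave 15 calls among 5754 genes, or 0.261%, and 477 genes at an unadjusted p under 0.05, and the EP4 antagonist gave 0 calls in edgeR and DESeq2 and 285 genes at an unadjusted p under 0.05. The EP2 antagonist values were -0.50 ± 0.17 for Fth1, -0.82 ± 0.24 for Blvrb, -0.36 ± 0.13 for Prdx1 and -1.02 ± 0.28 for Hmox1, with adjusted p of 0.3519, 0.2357, 0.3881 and 0.07798. Fth1 had 29308, 26523, 26936 and 26138 CPM in these libraries, and of the 8 libraries it was compared with only EP3 antagonist B lay in that range. Without EP3 antagonist B, which was picked for its member levels, 5 members fell with the EP2 antagonist, against 0.511% of 6072 genes. They were Prdx1 at -0.43 ± 0.11, Blvrb at -0.93 ± 0.19, Txnrd1 at -0.58 ± 0.15, Hmox1 at -1.06 ± 0.29 and Esd at -0.66 ± 0.15. Fth1 was then at -0.55 ± 0.17 with an adjusted p of 0.1458. A fit of only the groups compared and a fit with no filter on low counts called 2 members each.

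With the EP4 antagonist Fth1 had 34902, 36686, 34663 and 37165 CPM, at -0.08 ± 0.17 relative to the EP1 and EP3 antagonist groups, and the remaining members lay between -0.44 ± 0.26 for Blvrb and 0.50 ± 0.26 for Hmox1. Without EP3 antagonist B the values were -0.15 ± 0.16 for Fth1, -0.55 ± 0.20 for Blvrb and 0.45 ± 0.26 for Hmox1, and no member passed, where 0.0165% of 6072 genes did. Hmox1 had 122, 102, 113 and 101 CPM with the EP4 antagonist, above its 28.2 to 78.3 CPM with PGE2 alone in every library, on 6 to 38 counts. Whether the single antagonists differed from the combination was not tested. Relative to PGE2 alone, the group that chose the family, the fitted Fth1 values were -0.02 ± 0.19 with the EP1 (0.03 with library totals), -0.54 ± 0.19 with the EP2, -0.06 ± 0.19 with the EP3 (0.06 ± 0.20 without its library B), -0.12 ± 0.19 with the EP4 and -1.31 ± 0.19 with EP2 + EP4 antagonists. All 5 share the same 4 PGE2 libraries.

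**Figure D3:**
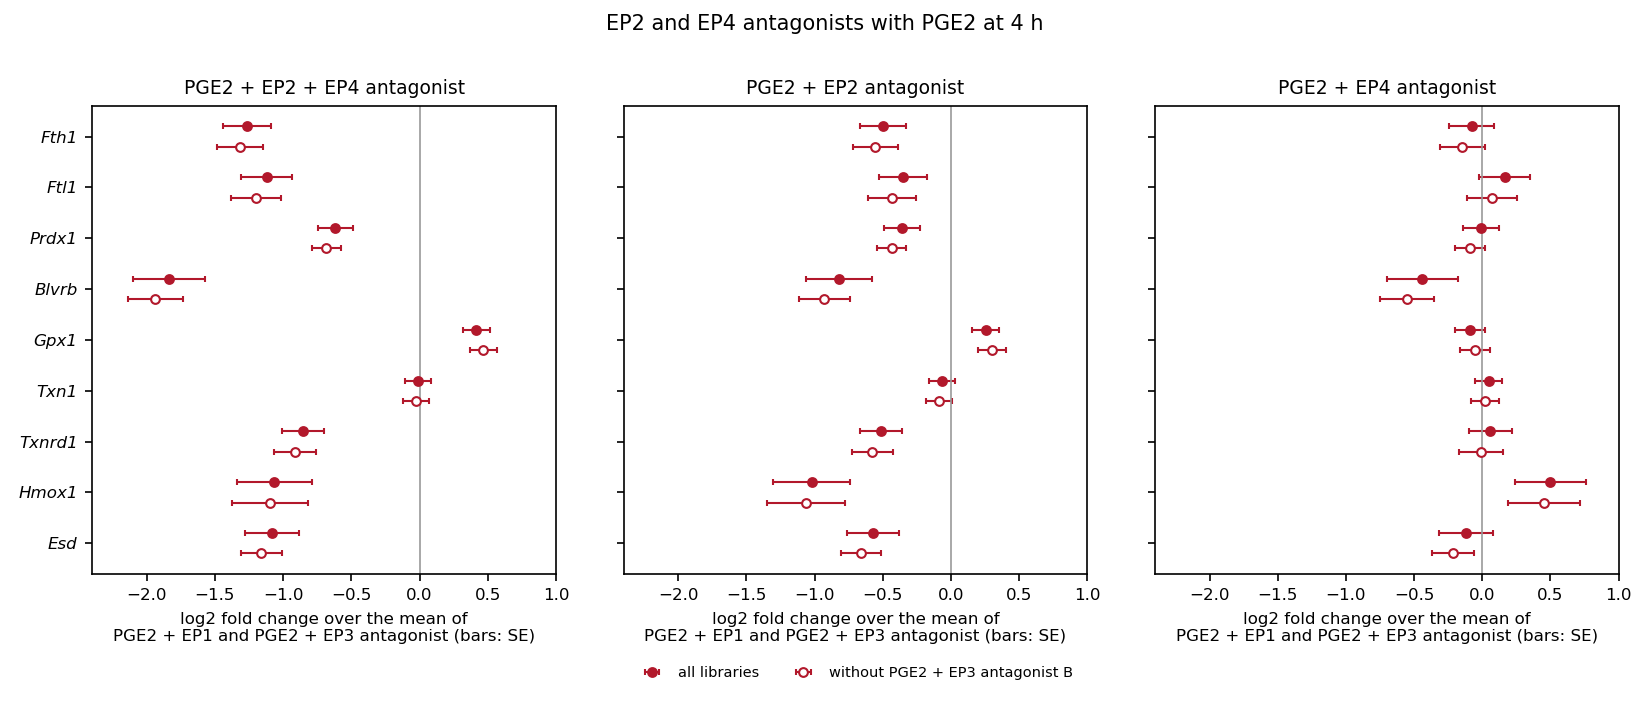
The plot of antagonist effects gives the log2 fold change and SE of each gene over the mean of the EP1 and EP3 antagonist groups, with filled points for all libraries and open points without PGE2 + EP3 antagonist B. In the left panel Blvrb is furthest from 0 at -1.84 and Gpx1 is at 0.42, and in the right panel, for the EP4 antagonist, most points lie near 0.

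Poly I:C alone was also described at 24 h. In poly I:C-treated cells 8 of the 9 members were above untreated cells in every library, Blvrb being the exception, where 25.9% of all genes were. This count was made with TMM scaling only. Hmox1 is in it by a narrow margin, 17.26 CPM on 3 counts in poly I:C A against 16.88 CPM on 6 counts in untreated C. Prdx1 had 6347, 7994, 8259 and 8914 CPM with poly I:C, against 598 to 686 CPM in untreated cells, at a log2 fold change of 3.55 ± 0.09. Txn1 had 6347 to 6921 CPM with poly I:C and 926 to 1051 CPM without it, at 2.69 ± 0.08. Fth1 had 31762 to 37850 CPM with poly I:C, at 1.76 ± 0.07. The remaining values were 1.86 ± 0.24 for Ftl1, 1.88 ± 0.50 for Hmox1, 1.84 ± 0.14 for Esd, 1.24 ± 0.20 for Txnrd1, 0.88 ± 0.22 for Blvrb and 0.63 ± 0.09 for Gpx1. This contrast depends on scaling, and it shares its untreated libraries with the PGE2 contrast. With library totals the median of all genes was -0.82 instead of -0.10, Prdx1 was at 2.83, Fth1 at 1.03 and Blvrb at 0.16, and Gpx1 changed sign to -0.09. Summed markers also differed, with no overlap in any list named here. The cDC1 list was at 5244 to 5949 CPM with poly I:C and 9335 to 9708 CPM in untreated cells, and the macrophage and monocyte list at 506 to 688 CPM with poly I:C and 1185 to 1615 CPM in untreated cells. The pDC list was at 617.6 to 828.7 CPM with poly I:C and 115.7 to 184.8 CPM in untreated cells, and the cDC2 list at 11.51 to 28.07 CPM with poly I:C and 90.3 to 135.1 CPM in untreated cells. Their part in these values was not tested.

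PGE2 for 24 h with poly I:C for 4 h was compared with poly I:C for 4 h without PGE2, in libraries that did not choose the family. The spread behind the test came from all libraries at 24 h, which include those that did. Fth1 rose, and Gpx1 and Txn1 fell, in PGE2 with poly I:C relative to poly I:C alone. Among 5273 genes 5.03% rose and 5.65% fell. Gpx1 had 1274, 1068, 1440 and 1231 CPM in PGE2 with poly I:C, against 2169, 2345, 2340 and 2549 CPM in poly I:C alone. The groups were far apart, the log2 fold change was -0.91 ± 0.09 and the adjusted p was 9.377e-16 in edgeR's quasi-likelihood test. Txn1 had 5224, 5797, 5549 and 5641 CPM in PGE2 with poly I:C, against 6347, 6885, 6691 and 6921 CPM in poly I:C alone, at -0.27 ± 0.08 with an adjusted p of 0.008928. The Txn1 call was lost without poly I:C B, with an adjusted p of 0.05344, and with no filter on low counts, with an adjusted p of 0.2099. Fth1 had 37112, 44079, 48614 and 49713 CPM in PGE2 with poly I:C, against 31762, 36610, 37610 and 37850 CPM in poly I:C alone. The ranges overlapped through library A of the combined group, and the log2 fold change was 0.32 ± 0.07 with an adjusted p of 0.0001102.

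The remaining 6 members did not pass. Prdx1 had 6547, 8599, 8626 and 8876 CPM in PGE2 with poly I:C, which overlapped poly I:C alone, at 0.05 ± 0.08. Blvrb was at -0.08 ± 0.21, Ftl1 at 0.31 ± 0.20, Txnrd1 at 0.20 ± 0.18, Hmox1 at 0.61 ± 0.40 and Esd at -0.19 ± 0.13. Summed cDC1 markers were 5691 to 6722 CPM in PGE2 with poly I:C and 5244 to 5949 CPM in poly I:C alone. The cDC1 list was not uniform. Irf8 had 3536 to 4153 CPM in PGE2 with poly I:C and 2837 to 3615 CPM in poly I:C alone. Xcr1 was lower in every library with PGE2, at 65.47 to 102.9 CPM against 165.7 to 215.2 CPM. Naaa was likewise lower, at 103.7 to 149.9 CPM against 189.9 to 249.5 CPM. Summed macrophage and monocyte markers were 429 to 486 CPM in PGE2 with poly I:C and 506 to 688 CPM in poly I:C alone. The pDC list was at 901.7 to 1217 CPM in PGE2 with poly I:C and 617.6 to 828.7 CPM in poly I:C alone, and the cDC2 list at 58.81 to 64.36 CPM in PGE2 with poly I:C and 11.51 to 28.07 CPM in poly I:C alone. Their part in these results was not tested.

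The difference between times was also tested without the libraries that chose the family, as the 24 h effect of PGE2 under poly I:C minus the 4 h effect of control CM over Ptgs-deficient CM. These differ in stimulus as well as in time, and neither can be told apart from the other. Gpx1 was lower in the late effect by -0.62 ± 0.14 with an adjusted p of 0.002415, and Txn1 by -0.49 ± 0.13 with an adjusted p of 0.009708, where 1.94% of 4960 genes were lower and 2.1% higher. Txn1 had an adjusted p of 0.1153 with no filter on low counts. Fth1 was at -0.65 ± 0.35 with an adjusted p of 0.4332, Blvrb at -0.95 ± 0.37 with 0.1691 and Prdx1 at 0.09 ± 0.23 with 0.9099. Without Ptgs-deficient CM B, which was picked for its member levels, 5 members were lower, against 2.51% of 5215 genes. The larger values without it partly follow from that choice. Fth1 was then at -1.08 ± 0.10 with an adjusted p of 8.062e-17, Blvrb at -1.44 ± 0.36 with 0.005034 and Esd at -0.85 ± 0.21 with 0.005113, beside Gpx1 and Txn1. The Prdx1 difference was then -0.11 ± 0.14.

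Other redox and iron genes were followed in 6 lists of 135 genes, of which 129 were in the table. The counts for PGE2 over untreated cells come from the libraries that chose the family, and the lists were chosen with earlier results known, so they are descriptions and nothing is read from them. With PGE2 at 4 h 13 of 71 tested genes were called higher and 0 lower, where 5.2% of 5754 genes were called higher and 3.37% lower. The list of NRF2 regulators and targets gave 7 of its 17 tested genes, with a median log2 fold change of 0.53 against -0.01 over all genes. Pgd, an NADPH-producing enzyme of the pentose phosphate pathway, was at 1.43 ± 0.23, Nqo1, a quinone reductase, at 2.06 ± 0.39, and Sqstm1, the autophagy adaptor p62, at 1.24 ± 0.23. Srxn1, sulfiredoxin, which repairs overoxidised peroxiredoxins, had 75.2, 99.4, 46.4 and 50.3 CPM with PGE2, against 0, 26.9, 8.62 and 7.95 CPM in untreated cells, on 9 to 26 and 0 to 8 counts. It was the only one of 17 tested peroxiredoxin and thioredoxin genes that was called. In the glutathione list 3 of 8 were called higher, among them Gclm and Gclc, the subunits that make its precursor. None of 10 tested iron genes and none of 7 heme genes outside the family was called.

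At 24 h with PGE2, likewise a description, 9 of 65 tested genes were called higher and 0 lower, where 4.74% of 5273 genes were called higher and 3.32% lower. Rac2, a GTPase of the NADPH oxidase, led with 191, 184, 114 and 179 CPM in PGE2-treated cells, against 32.3, 14.1, 14.1 and 16.5 CPM in untreated cells, at a log2 fold change of 3.09 ± 0.31. Ncf1, a subunit of the same oxidase, was at 0.92 ± 0.14, and Prdx5, a peroxiredoxin of mitochondria and peroxisomes, at 0.90 ± 0.16. Trf, transferrin, which carries iron between cells, had 324, 304, 244 and 362 CPM in PGE2-treated cells, against 132, 107, 146 and 152 CPM in untreated cells, at 1.21 ± 0.17. At that time summed macrophage and monocyte markers were 1748 to 2094 CPM with PGE2 and 1185 to 1615 CPM without it, cDC1 markers 6351 to 6544 CPM with PGE2 and 9335 to 9708 CPM without it, cDC2 markers 175.7 to 236.6 CPM with PGE2 and 90.3 to 135.1 CPM without it, and lymphocyte markers 16.9 to 25.1 CPM with PGE2 and 2.814 to 8.466 CPM without it. None of these ranges overlapped, and the part of these markers in the values was not tested. The 24 h minus 4 h effect itself, from the same libraries, was called for 9 of 71 tested genes, where 2.11% of 5403 genes were higher and 2.26% lower. It was higher for Rac2, Trf, Ncf1 and Prdx5, and lower for Gclm at -1.09 ± 0.24, Abcc1 at -1.57 ± 0.42, Srxn1 at -3.26 ± 0.91, Sod1 at -0.59 ± 0.18 and Pgd at -1.07 ± 0.34. Srxn1 held 0 to 3 counts in each PGE2 library at 24 h, so its value depends on the prior count of the fit.

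In the CM comparison 2 of 71 genes rose and 0 fell, beside the 2.33% of all genes that rose and the 1.53% that fell. The share that rose was thus near that of all genes, and nothing is read from the count. The 2 genes were Nfe2l2, which encodes NRF2, at 1.37 ± 0.33, and Srxn1 at 1.39 ± 0.43, with adjusted p of 0.004329 and 0.041. Nfe2l2 had 65.6, 98.8, 144 and 73.9 CPM in control CM, against 59.8, 48.6, 24.0 and 6.59 CPM in Ptgs-deficient CM, and no library overlapped. Without Ptgs-deficient CM B 5 of 74 rose, where 3.17% of all genes did, the others being Osgin1, Sqstm1 and Ncf4. With EP2 + EP4 antagonists 17 of 71 genes fell and 1 rose relative to the EP1 and EP3 antagonist groups, where 5.58% of all genes fell and 4.9% rose. Those that fell included 9 of 17 in the NRF2 list, whose median was -0.48 against 0.01 over all genes, led by Pgd at -1.18 ± 0.17, Osgin1 at -1.39 ± 0.24 and Nqo1 at -1.72 ± 0.30. Srxn1 fell by 2.15 ± 0.35, to 14.3, 5.78, 16.2 and 18.1 CPM, against 35.7 to 94.3 CPM over the 8 libraries. Glutathione reductase Gsr fell by 1.34 ± 0.33 and catalase (Cat) by 0.68 ± 0.18, and Pcbp2, an iron chaperone that loads ferritin, rose by 0.41 ± 0.13. Without EP3 antagonist B 16 of 74 fell and 4 rose, where 5.67% of all genes fell and 5.4% rose.

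In PGE2 with poly I:C relative to poly I:C alone 8 of 65 genes rose and 4 fell, where 5.03% of all genes rose and 5.65% fell, so the share that fell was near that of all genes. Prdx6 rose by 0.64 ± 0.11, Prdx5 by 0.83 ± 0.16, Ncf4 by 1.17 ± 0.19 and Nfe2l2 by 0.72 ± 0.19, while Prdx4 fell by 1.37 ± 0.34, Cyba by 0.58 ± 0.11 and Keap1, the repressor of NRF2, by 0.69 ± 0.19. Nfe2l2 had 392, 313, 295 and 264 CPM in PGE2 with poly I:C, against 161, 227, 168 and 210 CPM in poly I:C alone. Prdx6 had 1284, 1103, 1375 and 1251 CPM in PGE2 with poly I:C, against 788, 931, 744 and 752 CPM in poly I:C alone. In both genes every library with PGE2 was higher. Of these genes the difference of the late and the CM effect passed for 4 that were higher and 2 that were lower among 60 tested, where 2.1% of all genes were higher and 1.94% lower. Without Ptgs-deficient CM B it passed for 3 that were higher and 3 that were lower among 62, where 1.98% of all genes were higher and 2.51% lower. The EP2 and the EP4 antagonist, each against the EP1 and EP3 antagonist groups, called 0 of 71 in edgeR, where the tests over all genes had 477 and 285 at an unadjusted p under 0.05. Without EP3 antagonist B the EP2 antagonist called 1 of 74, Nqo1 at -1.01 ± 0.28 with an adjusted p of 0.04738, where 0.511% of all genes were lower.

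**Figure D4:**
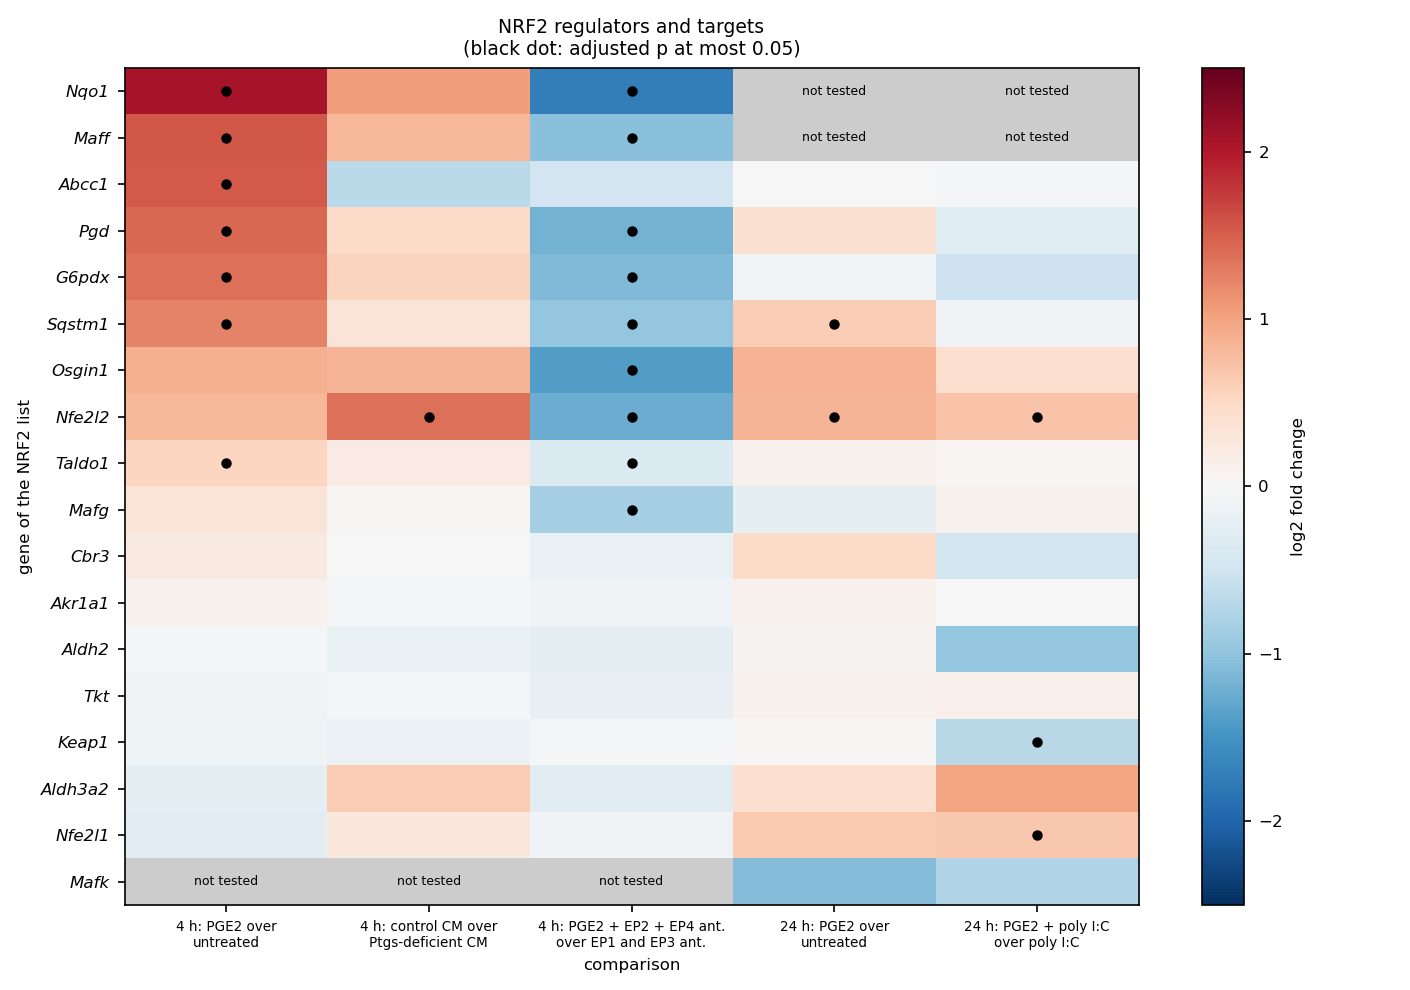
The plot of the NRF2 list gives log2 fold changes as colours for each gene of the list tested at 4 h or 24 h, with a black dot where the adjusted p is at most 0.05. The first column, PGE2 over untreated cells at 4 h, has 7 dots, all on genes called higher, the third, EP2 + EP4 antagonists over EP1 and EP3 antagonists, has 9 dots on genes that fell, and the fourth, PGE2 at 24 h, has 2.

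Over the 13 group means the members did not all move together. The Pearson correlation of mean log2 CPM with Fth1 was 0.98 for Ftl1, 0.97 for Txnrd1, 0.96 for Esd, 0.88 for Blvrb, 0.80 for Hmox1, 0.74 for Prdx1, 0.63 for Txn1 and -0.37 for Gpx1. Prdx1 and Txn1 had a correlation of 0.97 with each other. The group means share libraries' depth and culture and the poly I:C groups weigh heavily on them, so these are descriptions. Of 3057 genes compared, those most like Fth1 were Gm6977 at 0.996, Ftl1, Txnrd1, Esd and Plgrkt at 0.949. Gm6977 is annotated as a pseudogene, and 12% to 16.5% of the 50-base runs at the end of Fth1 transcripts are also in it, so its counts may hold Fth1 reads. Among those most like Prdx1 were Gm21399 at 0.978, Pgd at 0.973, Lilr4b at 0.969 and Txn1, and up to 58.1% of the end of Prdx1 is shared with 3 genes, Gm21399 among them. Those most like Blvrb were Taldo1 at 0.932, Esd, Fth1, Gm6977 and Ftl1.

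Ordered by mean TMM-scaled level over the 13 groups, Fth1 was highest in PGE2 with poly I:C at 44880 ± 5724 CPM (SD, n = 4). PGE2 at 4 h, 39507 ± 1791 CPM, and its EP1, EP3 and EP4 antagonist groups and poly I:C alone followed, between 35854 ± 1256 and 38577 ± 6122 CPM. Every EP4 antagonist library, at 34663 to 37165 CPM, lay below every library of PGE2 at 4 h, at 37436 to 41347 CPM. Otherwise the libraries of these groups overlapped one another. Control CM at 27530 ± 1041 CPM and the EP2 antagonist at 27226 ± 1425 CPM overlapped each other and, by mean, stood above the EP2 + EP4 antagonist group at 15942 ± 1794 CPM. Ptgs-deficient CM, at 13919 ± 7261 CPM with library B and 10320 ± 1199 CPM without it (n = 3), PGE2 at 24 h and the untreated groups were lowest. The place of the poly I:C groups in this order depends on scaling. As a share of all counts, Fth1 was 2.32% to 3.11% in PGE2 with poly I:C and 3.98% to 4.24% in PGE2 at 4 h. Its share was 2.03% to 2.4% in poly I:C alone, below the 2.84% to 3.08% in control CM and 2.77% to 3.10% with the EP2 antagonist. Blvrb was highest with the EP1 antagonist at 382 ± 33.6 CPM and lowest with PGE2 at 24 h at 62.8 ± 14.9 CPM, which overlapped both untreated groups. Prdx1 had its highest mean in PGE2 with poly I:C and its lowest in PGE2 at 24 h at 586 ± 65.7 CPM, again overlapping both untreated groups.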

How the data were processed

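UMI counts per gene from 52 libraries were deposited by the authors as 1 table. They had been sequenced on a NextSeq 500, processed with the Drop-seq pipeline and counted on GRCm38 with Ensembl 75, per the labels' protocols. The submitters' processing notes also name GRCm38.p6 and DESeq2 1.14.1. The aligner is not given in the sources used here, nor is strand. A gene's count comes from transcript ends. Date-like names hold 0.105% of counts. Group and letter come from the labels.

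Genes passing filterByExpr were fitted with edgeR 4.0.16 in R 4.3.3 (TMM scaling, robust quasi-likelihood F-test, Benjamini-Hochberg adjustment over all genes of a fit, threshold 0.05). The fits held 5754 genes at 4 h, 5273 at 24 h, 5403 for the PGE2 effect between times and 4960 for the other difference of effects. Each fit at 4 h or 24 h took its spread from every library of that time, PGE2 and untreated ones included. CPM values use TMM-scaled totals. DESeq2 1.42.0, library totals, no filter, only the groups compared, a replicate block and leaving out libraries were alternatives. Code was tested on simulated data. The members and gene lists were chosen with earlier results of these data known. All 9 members are named, and of other called genes at most 3 per list and direction, by smallest adjusted p. Gene positions and transcript ends come from GENCODE vM21, and upstream sequences from RefSeq.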

Additional observations from a re-analysis of the deposited data

Results flagged for a closer look

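Of 117 sets of 4 libraries, 1 per member and group, 6 held a library far from the other 3, and chance sets apart about 1 in 20 groups. Fth1 in Ptgs-deficient CM B was 24710 CPM, against 8943 to 11121 CPM in the others of its group. Prdx1 in PGE2 with poly I:C A was 6547 CPM, against 8599 to 8876 CPM. Ftl1 with the EP4 antagonist was 244.3 CPM in library C and 178 to 187 CPM in the others. Txn1 stood apart in 3 groups, at 1654 CPM with the EP2 antagonist in D, at 1392 CPM with the EP3 antagonist in B and at 1614 CPM with EP2 + EP4 antagonists in D.

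The PGE2 effect under poly I:C at 24 h and the effect of control CM over Ptgs-deficient CM at 4 h differed for Gpx1, by -0.624, and for Txn1, by -0.4913 on the log2 scale, in a test of the difference itself. Stimulus and time cannot be told apart in it.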

How the results depend on the processing

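With EP2 + EP4 antagonists 8 members passed under every alternative run, over 462 to 672 called genes with each library left out. Members called in the CM comparison numbered 1 in a fit of only the groups compared, 5 without the 2 libraries that stood apart (chosen after seeing the data) and 1 to 4 with each library left out, over 138 to 307 genes. The EP2 antagonist called 2 members with no filter, 2 members and 24 genes in a fit of only the groups compared, 6 members and 67 genes without the 2 libraries, and 0 to 5 members and 3 to 52 genes with each library left out. The EP4 antagonist called 1 gene without the 2 libraries and 0 to 1 with each left out. The difference of effects called 107 genes and 1 member with no filter, 5 members without the 2 libraries, and 2 to 5 members and 134 to 234 genes with each left out. The letters were not taken to pair the samples, since 0 of 52 same-letter correlations passed 0.1 (-0.034 to 0.055), though 26 of the 52 were the highest for their letter, a hint from the data and not the design. The replicate block called 29 genes and 2 members for the EP2 antagonist, 237 genes in the CM comparison and 608 with EP2 + EP4 antagonists. Signs of members' values turned in the tested comparisons for Prdx1 at 0.17 and Hmox1 at 0.61 in the CM comparison without the 2 libraries, Txn1 with EP2 + EP4 antagonists at 0.041 with library totals and 0.021 with no filter, Prdx1 at 0.0035 (DESeq2) and Txnrd1 at -0.015 (without the 2 libraries) for the EP4 antagonist, and Prdx1 at -0.11 in the difference of effects. Leaving out each library gave -0.16 to 0.17 for Prdx1 and -0.53 to 0.60 for Hmox1 in the CM comparison and -0.046 to 0.046 for Txn1 with EP2 + EP4 antagonists. For the EP4 antagonist it gave -0.091 to 0.060 for Prdx1, -0.0092 to 0.13 for Txnrd1 and -0.050 to 0.10 for Txn1. For PGE2 with poly I:C it gave -0.060 to 0.13 for Prdx1 and -0.33 to 0.074 for Blvrb, and for the difference of effects -0.11 to 0.20 for Prdx1. The causes were not tested. At the median total, 3 counts are 10.2 CPM, so Hmox1 at 24 h is at the limit of depth in untreated and in PGE2-treated cells. It held 3 to 18 counts with poly I:C, and 11 to 23 counts, or 51.5 to 90.7 CPM, in PGE2 with poly I:C.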
